A study of Oryctolagus cuniculus with 35 samples.

Results

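SEC62 is a protein of the endoplasmic reticulum (ER) membrane, and its mRNA was followed here in the lungs of rabbits with pneumonia and in healthy lungs. It is 1 of 23669 genes in the deposited tables (gene identifier ENSOCUG00000008720), taken as the row named SEC62 in each of the 4 tables. It was selected on measured values, with the deposited fold changes and adjusted p-values of these tables known, so its levels and differences are given as a description with no test. In the authors' deposited table for ceftaroline with cells against ceftaroline alone it stood at rank 2 by p among the 11214 genes with an adjusted p, of which 108 were under 0.05. In that deposited table its log2 fold change was 0.93 (SE 0.11).

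The study profiled lung mRNA of New Zealand rabbits in 5 groups of 7 animals. Healthy rabbits carry the treatment label NaCl (saline). Rabbits of the other 4 groups were infected with pneumococci, put on adverse mechanical ventilation and treated 4 h after the bacteria were given. They received NaCl, human mesenchymal stem cells (MSCs) from umbilical cord into a vein, the cephalosporin antibiotic ceftaroline at 20 mg/kg into muscle, or ceftaroline and MSCs together. Lung was taken at 24 h, or at death where an animal died before, and the labels do not say which animals these were. Age and sex are not given in the labels used here. Pneumonia and ventilation always came together, so their shares in a difference from healthy lung cannot be told apart.

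Most secreted and membrane proteins enter the ER through the SEC61 channel. The signal recognition particle (SRP) and its receptor bring many of them there while they are still being made. SEC62 and its partner SEC63 sit beside the channel and help it to open for proteins that arrive late or have weak signals, with the luminal chaperone BiP pulling from inside. SEC62 is also known as a receptor for ER-phagy, the removal of ER by autophagy, through which cells shrink an ER that had grown during stress. In the lung, alveolar type II cells and antibody-secreting plasma cells are known for a large secretory load.

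Recovered totals were 7567008 to 33209729 reads per library (median 11137017), and 11104 to 12017 genes had a read. SEC62 itself had 224 to 1622 reads per library, a counting error of 2.48 to 6.68%, and its level over the 35 libraries had a Spearman correlation of -0.18 with the library total. Some titles end in PD or PG, letters whose meaning is not given: PD in 4 healthy libraries, PG in 1 healthy, 3 NaCl and 2 MSC libraries, and neither in the ceftaroline groups. A further mark, S00, also unexplained, is carried by every healthy library and by NaCl replicate 2, and by no other. It nearly coincides with the split of healthy from pneumonia lungs, so its part in that difference cannot be told apart. As a check on the tissue label, the alveolar genes SFTPB, SLC34A2 and AGER were read in the libraries, whereas SFTPC, SFTPD, ABCA3, FOXJ1 and SCGB1A1 are listed at 0 in all 35. A gene listed at 0 here says nothing about its expression, since 10217 genes are, among them HSPA5 (BiP), HYOU1 and CANX, which nearly every cell uses.

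SEC62 was highest in healthy lung, lower in the group given both treatments, and lowest in the other 3 pneumonia groups. The scale used to set the groups side by side is reads divided by size factors computed over all 35 libraries (normalised reads). Healthy lungs ranged from 1016 to 1697 normalised reads with a median of 1195 (mean 1234 ± 215, SD, n = 7). With pneumonia and NaCl the range was 455 to 861 with a median of 490 (592 ± 164, n = 7). Every NaCl library lay below every healthy one, and the group split into a low set and a high set described below.

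The MSC group ranged from 353 to 656 normalised reads of SEC62 with a median of 432 (465 ± 112, SD, n = 7). Ceftaroline alone gave 402 to 550 with a median of 434 (468 ± 60.4, n = 7). Ceftaroline with MSCs gave 779 to 1104 with a median of 849 (895 ± 118, n = 7). All 7 libraries of the combined treatment thus lay above all 7 of each single treatment, and 3 of them lay above the highest NaCl library.

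**Figure D1:**
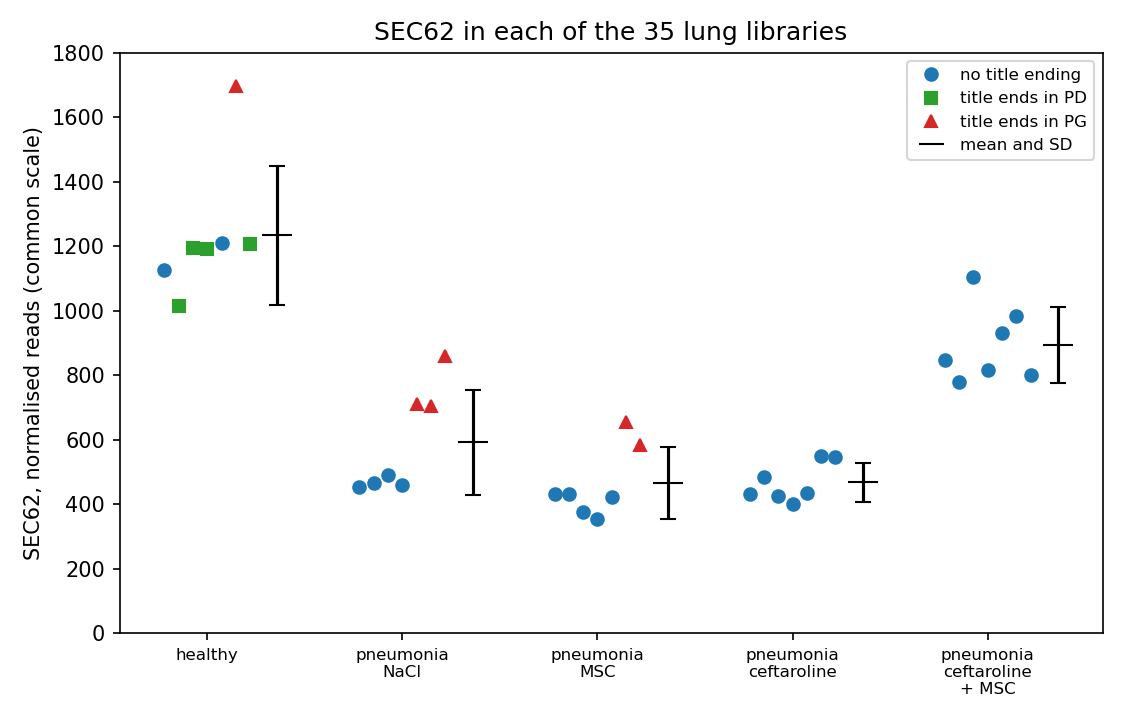
SEC62 in normalised reads (y axis, from 0) in each of the 35 libraries, by group (x axis). Points are libraries, shaped by the ending of the sample title, and bars are the mean and SD of 7 libraries. Healthy libraries (1016 to 1697) and those given ceftaroline with MSCs (779 to 1104) sit above the low pneumonia libraries, and the libraries marked PG lead each group that has them.

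In order of mean level the groups ran healthy, ceftaroline with MSCs, NaCl, ceftaroline, MSC. The step from healthy to the combined treatment was -0.46 log2 (SE 0.11), with 6 of its 7 libraries below the lowest healthy one and 1 inside the healthy range. The combined treatment stood 0.63 log2 (SE 0.16) above NaCl, and these groups overlapped. NaCl and ceftaroline differed by -0.30 log2 (SE 0.16), ceftaroline minus NaCl, and overlapped too. Ceftaroline and MSC did not differ beyond their spread, at 0.03 log2 (SE 0.14). Against healthy lung the MSC group was at -1.42 and the ceftaroline group at -1.39 log2, with no overlap in either case. The combined treatment was 0.97 log2 (SE 0.14) above MSC alone and 0.93 (SE 0.10) above ceftaroline alone.

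Libraries marked PG had more SEC62 than the rest of their group. In the NaCl group the 3 PG libraries held 758 ± 89.1 normalised reads (SD, n = 3) and the other 4 held 467 ± 16.0 (n = 4), with no overlap. In the MSC group the 2 PG libraries held 621 ± 50.2 (n = 2) and the other 5 held 403 ± 36.0 (n = 5), again with no overlap. The single healthy PG library was the highest of all at 1697, and the other 6 healthy libraries averaged 1157. These gaps were 0.69, 0.63 and 0.56 log2 in NaCl, MSC and healthy lung, and 17.6, 16.1 and 14.4% of 9888 genes were higher in PG libraries by as much in the same group. What the ending marks, and its part in the SEC62 levels, was not tested.

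Without the libraries that carry an ending, SEC62 in the combined treatment was 0.93 log2 above NaCl (7 against 4 libraries) and the groups no longer overlapped. The ceftaroline group then stood at -0.01 log2 from NaCl, and the MSC group at -0.22. NaCl minus healthy was -1.32 log2 without endings (4 against 2 libraries), beside -1.09 with all libraries. The comparison of the combined treatment with ceftaroline holds no library with an ending.

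The scale matters for SEC62, since dividing by the library total shifts the median of all genes by -0.45, 0.30, 0.25 and 0.15 log2 in the disease, MSC, ceftaroline and MSC with ceftaroline comparisons. In CPM, which scales reads to the library total, SEC62 averaged 116 in healthy lung, 42.7 with NaCl, 40.5 with MSCs, 39.6 with ceftaroline and 84.0 with both. Taken as the mean of log2(CPM + 1), the 3 low groups were within 0.04 of each other. That nearness rests on the libraries marked PG: without title endings the MSC group stood 0.24 and the ceftaroline group 0.42 log2 above NaCl, both with no overlap, where the normalised scale had -0.22 and -0.01. The combined treatment still lay wholly above ceftaroline alone (1.07 log2, SE 0.16), and 6 of its 7 libraries lay above the highest MSC library.

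The first comparison the study set up asks what pneumonia with ventilation changes in the lung. In its table SEC62 went from deposited normalised values of 966 ± 172 in healthy lung to 468 ± 131 with NaCl (SD, n = 7 each), a log2 difference of -1.07 (SE 0.17) with no overlap. Across all genes, 60.6% were called at an adjusted p under 0.05 by limma (29.7% higher, 30.9% lower), and 15.2% were lower, 14.7% higher, with no overlap between groups. SEC62 was not unusual in size here: 1788 of 9545 genes had a log2 difference as low or lower. In bulk lung, fewer cells of a type and less RNA per cell cannot be told apart.

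SEC61A1, the pore of the channel that SEC62 serves, rose in the same lungs. Its deposited values went from 3937 ± 805 to 11073 ± 1427 (log2 1.51, SE 0.16, limma adjusted p 1.4e-06), with no overlap. SEC61A2, a related pore subunit, was at 0.40 log2 (SE 0.25, limma adjusted p 0.1666). SEC63, the partner of SEC62, stood at 2202 ± 444 in healthy and 2374 ± 368 in NaCl lung, a log2 difference of 0.12 (SE 0.15) that limma did not call (adjusted p 0.5133). SEC62 was thus lower and the pore higher, while SEC63 was not called. SEC61A1 and SEC61A2 are close relatives, and how reads shared by such copies were counted is not given, so their values carry that uncertainty.

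Among the helpers of BiP, DNAJC3 rose by 1.44 log2 (SE 0.12, limma adjusted p 2.0e-07) and SIL1, which lets BiP release its nucleotide, fell by 1.34 log2 (SE 0.18, limma adjusted p 1.1e-05). DNAJC1, an ER co-chaperone at the membrane, was called higher at 0.40 log2 (limma adjusted p 0.005172) but stood at -0.06 when reads were divided by the library total. Of the proteins beside the channel, TRAM1 (0.70 log2, SE 0.16), SSR1 (0.60, SE 0.12) and SSR3 (0.56, SE 0.12) were called higher by limma, and SSR2 (0.16) and TRAM2 (-0.51) were not. Of the 6 SRP genes tested 5 rose, beside 29.7% of all genes, among them both receptor subunits SRPRB (1.65 log2, SE 0.16, limma adjusted p 6.0e-07) and SRPRA (1.13, SE 0.18), and SRP72 (0.56, SE 0.09). TRAM1, SSR1, SSR3 and SRP72 were no longer called with reads per library total, where they stood at 0.24, 0.14, 0.10 and 0.10 log2. On that scale 15.3% of all genes were called higher and 45.4% lower, and of the SRP genes SRPRB and SRPRA were called higher and SRP14, named after its value was seen, lower.

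ER-phagy genes moved in the direction of SEC62. Of 8 tested, 7 fell by limma, beside 30.9% of all genes, and their median difference was -0.86 log2 against 0.00 for all genes. CALCOCO1, a soluble ER-phagy receptor, went from 997 ± 154 to 271 ± 113 (log2 -1.97, SE 0.23, adjusted p 4.1e-06). RETREG1, which bends ER sheets for autophagy, went from 809 ± 128 to 293 ± 120 (log2 -1.56, SE 0.23, adjusted p 3.7e-05). Neither overlapped between the groups.

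The other ER-phagy receptors RETREG3 (-1.11 log2), TEX264 (-0.81) and CCPG1 (-0.70) fell as well. So did the LC3-like proteins GABARAPL1 (-0.90) and GABARAPL2 (-0.71), which autophagy receptors bind, whereas GABARAP stood at 0.08 (SE 0.32, limma adjusted p 0.8494). With reads per library total, where 45.4% of all genes were called lower and their median was -0.45, again 7 of the 8 were called lower, with a median of -1.31 log2.

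ER stress genes moved the other way. Of 11 tested 9 rose by limma, beside 29.7% of all genes, with a median of 1.52 log2. MANF, a secreted ER stress protein, rose by 2.11 log2 (SE 0.20, limma adjusted p 5.7e-07). The protein disulphide isomerases PDIA3 (1.20 log2) and PDIA4 (1.52) rose too. With reads per library total 8 were called higher and 1 lower, beside 15.3% and 45.4% of all genes, with a median of 1.06.

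The remaining lists moved less. Of 7 oligosaccharyltransferase genes, which attach sugars to proteins in the ER, 4 were called higher, beside 29.7% of all genes, with a median of 0.35 log2. The largest of these differences was DDOST (1.05, SE 0.18, limma adjusted p 0.0001121), followed by RPN1 (0.73), while STT3A was called at 0.40 but stood at -0.06 with reads per library total. Of 9 genes of other insertion routes 2 were called higher and 1 lower, with a median of -0.11, shares below those of all genes (29.7% and 30.9%). TMEM208 was the higher of these (0.77 log2) and MMGT1 the lower (-0.63). With reads per library total 1 sugar transfer gene was called higher and 1 lower, and 1 insertion gene higher and 5 lower. The 1 signal peptidase gene tested, SEC11C, was at -0.20 and not called (limma adjusted p 0.1737).

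Over all 9 lists, 53 of 96 listed genes could be tested, 26 were called higher and 9 lower, beside 29.7% and 30.9% of all genes, and the median was 0.35 log2. With reads per library total the split was 14 higher and 17 lower, beside 15.3% and 45.4% of all genes, and the median was -0.11 against -0.45 for all genes. Of the 35 called, DNAJC1, BAG6, STT3A and STT3B (the last named after its value was seen) changed sign between the scales. SEC62 was at -1.53 log2 on that scale.

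**Figure D2:**
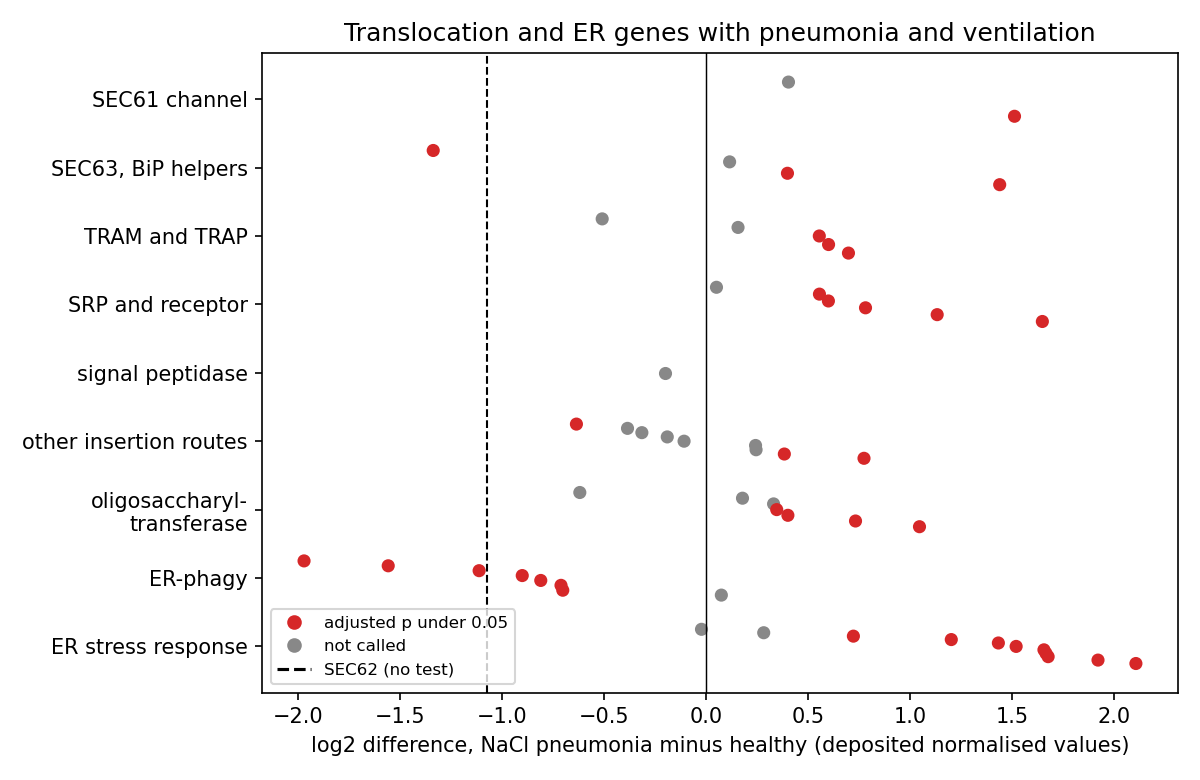
Log2 difference, NaCl pneumonia minus healthy (x axis), for the 53 tested genes of the 9 lists (y axis). Each point is a gene, red where the adjusted p was under 0.05, and the dashed line is SEC62 at -1.07. ER-phagy genes lie mostly on the side of SEC62 and ER stress genes on the other.

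Libraries from NaCl lungs also held more inflammatory and less alveolar RNA than healthy ones. The summed level of the 6 detected neutrophil markers ranged from 15338 to 117447 normalised reads in healthy lung (median 34717) and from 179204 to 1651832 with NaCl (median 896159). The 2 detected alveolar type II markers, SFTPB and SLC34A2, summed to 107404 to 188855 in healthy lung (median 153998) and 12524 to 97189 with NaCl (median 34885). All 6 neutrophil markers were called higher and both type II markers lower by limma, beside 29.7% and 30.9% of all genes. The part of these markers in the SEC62 difference was not tested.

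With MSCs given alone 5 of 7 libraries had less SEC62 than the lowest NaCl library, and the 2 inside the NaCl range were those marked PG. In that table the deposited values were 469 ± 128 with NaCl and 373 ± 88.9 with MSCs (SD, n = 7 each), a log2 difference of -0.32 (SE 0.19). The groups overlapped through those PG libraries and not without them, and with reads per library total the difference was -0.02. Limma called 0% of 9446 genes, and 1672 had an unadjusted p under 0.05. EdgeR called 0 genes and DESeq2 335.

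None of the 53 listed genes was called with MSCs by limma, with 10 at an unadjusted p under 0.05, 0 called by edgeR and 3 by DESeq2. Those 3 were SEC61A1, SRPRB and DNAJB9, a stress-induced co-chaperone. SEC61A1 had deposited values of 11100 ± 1374 with NaCl and 7544 ± 1438 with MSCs, and its log2 difference was -0.57 (SE 0.15, limma adjusted p 0.1594, DESeq2 adjusted p 0.01279). For SRPRB and DNAJB9 the differences were both -0.74 log2 (limma adjusted p 0.1594 for both). SEC63 was at -0.26 (limma adjusted p 0.3359).

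Ceftaroline alone gave a similar picture for SEC62. Deposited values of 581 ± 159 in the NaCl group compared with 466 ± 54.9 under ceftaroline (SD, 7 libraries each), giving a log2 difference of -0.28 (SE 0.16) with overlapping groups, and -0.03 with reads per library total. Limma called 0% of 9614 genes, 1760 had an unadjusted p under 0.05, edgeR called 0 and DESeq2 519. Of the 53 listed genes limma called 0 (8 at an unadjusted p under 0.05), edgeR 0 and DESeq2 3. SRPRB, DNAJB9 and SEC61A1 were again those 3, at -0.62, -0.78 and -0.41 log2 (limma adjusted p 0.1458, 0.1373 and 0.1788). The disease, MSC and ceftaroline comparisons all use the same 7 NaCl libraries, so their values are not independent.

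The last comparison asks what MSCs add to ceftaroline, and here SEC62, selected with this contrast known, was higher. Its deposited values with ceftaroline alone ranged from 532 to 729 with a median of 575 (620 ± 77.9, SD, n = 7). With MSCs added they ranged from 1028 to 1463 with a median of 1123 (1184 ± 158, n = 7). No library of either group entered the range of the other, and the log2 difference was 0.93 (SE 0.11). Of 9924 genes, 333 differed upward by as much, 0.262% were higher with no overlap, and 0.0403% (4 genes) were called by limma.

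SEC62, which was selected with this contrast known, is among these 4, and nothing is read from that. The others, named after their values were seen, were IL18R1, a chain of the interleukin-18 receptor, which fell by 1.09 log2 (SE 0.16, limma adjusted p 0.02433), and a pair with no symbol in the tables, ENSOCUG00000021154 at 0.62 log2 (SE 0.08, adjusted p 0.008299) and ENSOCUG00000027927 at 2.21 (SE 0.34, adjusted p 0.03236). The count was 11 with edgeR and 99 with DESeq2. IL18R1 was the sole lower call, and no gene was called lower in 8 of the 14 fits that left out 1 library (ceftaroline replicates 2, 3, 5 and 7, and combined treatment replicates 2, 4, 5 and 6), nor with reads per library total.

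None of the 53 listed genes was called by limma or edgeR when MSCs were added to ceftaroline, nor by DESeq2. Limma called 0.0403% of all genes here, so a lack of calls among the 53 says little. By limma 5 had an unadjusted p under 0.05, beside 1143 of all 9924 genes. The median of the 53 listed genes was -0.06 log2, beside 0.00 for all genes. SEC61A1 was at -0.15 log2 (limma adjusted p 0.6169) and SEC63 at -0.23 (SE 0.14, limma adjusted p 0.4688). TRAM2, a relative of TRAM1 with few reads, had the largest upward difference of the listed genes at 0.49 (SE 0.28, limma adjusted p 0.4553). TRAM1 was at -0.28, SSR1 at -0.17, SSR2 at 0.06 and SSR3 at -0.20. The ER-phagy genes had a median of 0.10 log2, with TEX264 at 0.42 (limma adjusted p 0.4256), RETREG1 at 0.33 (SE 0.36), CALCOCO1 at 0.19 (SE 0.37) and GABARAPL2 at 0.00. The SEs of TRAM2, RETREG1 and CALCOCO1 are large, so differences of the size of SEC62's are not excluded for them.

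**Figure D3:**
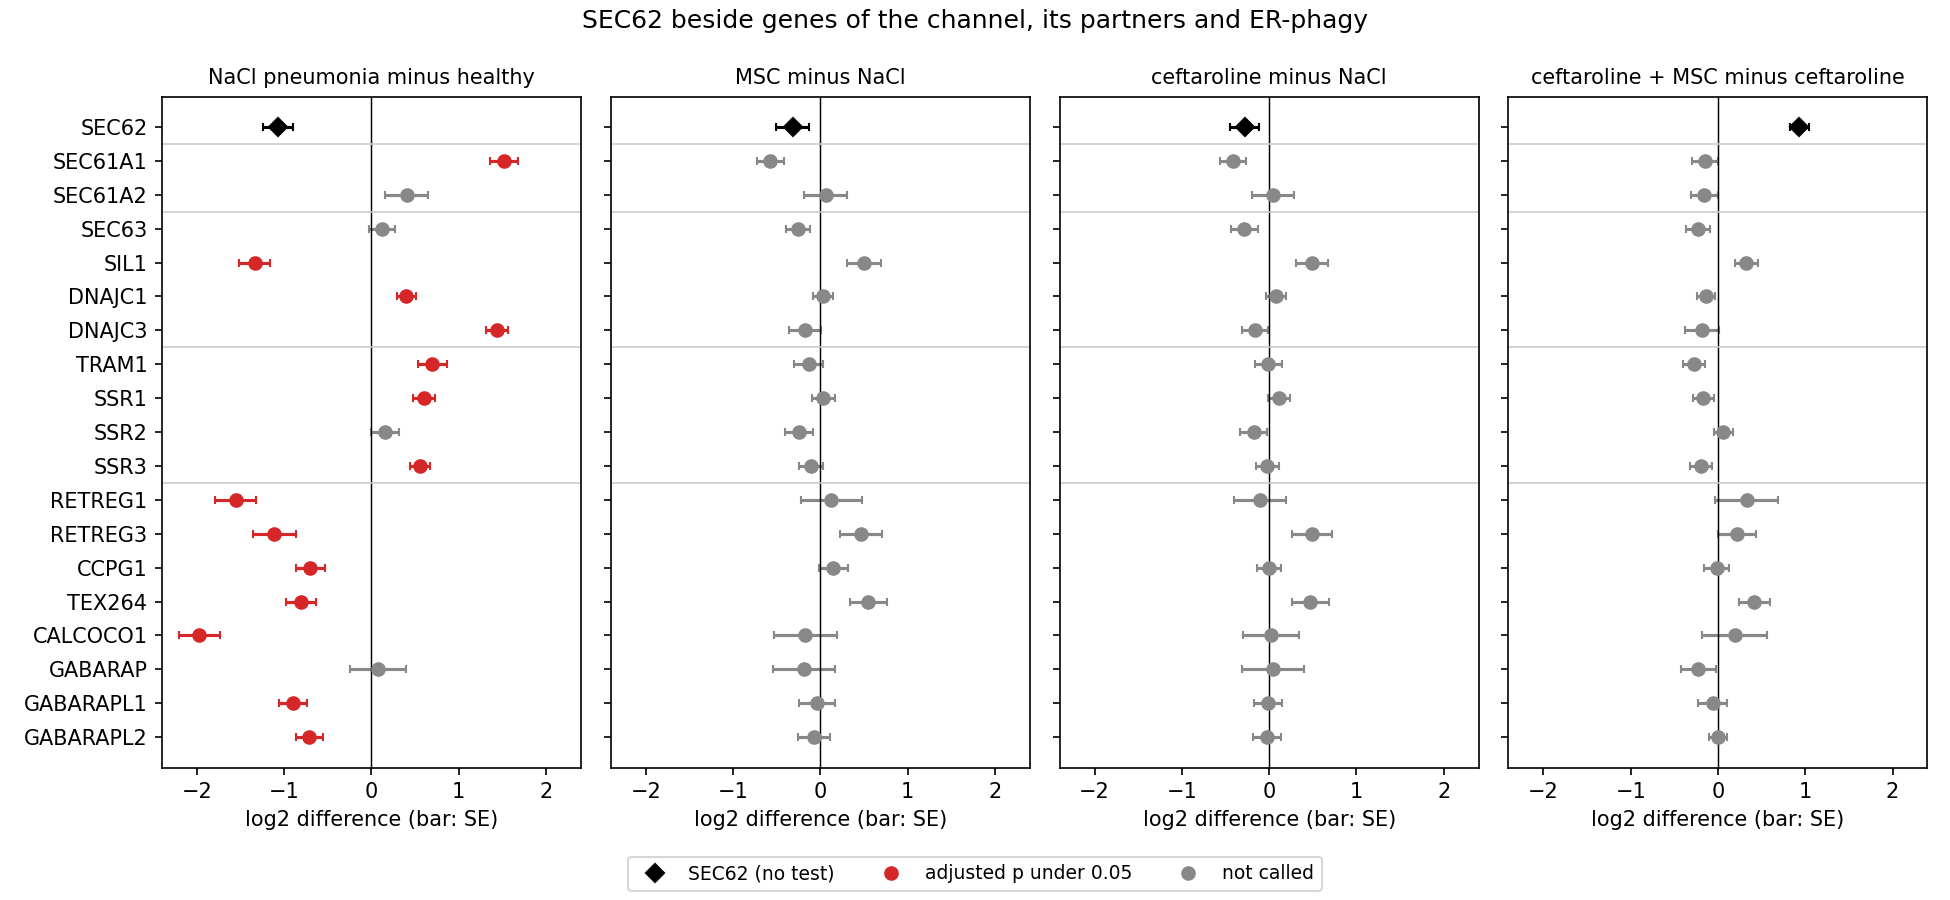
Log2 difference with its SE (x axis) of SEC62 and the detected genes of the channel, its partners and ER-phagy (y axis) in the 4 comparisons; TRAM2, near the detection limit, is left out. SEC62 (diamond) is at -1.07, -0.32, -0.28 and 0.93 from left to right, and red marks an adjusted p under 0.05, which only genes of the leftmost panel reached.

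The effect of MSCs with ceftaroline minus that without it can be taken in 1 fit over the 28 pneumonia libraries. For SEC62 it was 1.27 log2 (SE 0.22) on the normalised scale, with the libraries marked PG kept. In this fit those libraries lie only in the groups without ceftaroline. Without title endings SEC62 with MSCs minus NaCl was -0.22 log2 on that scale and 0.24 as the mean of log2(CPM + 1). For MSCs added to ceftaroline, where no library has an ending, the values were 0.93 and 1.07. Of 10103 genes limma called 1 for the difference between the MSC effects (0.0099%), and 545 had an unadjusted p under 0.05. The called gene is SEC62, whose selection rests on the same libraries, so nothing is read from that call. None of the 53 listed genes was called by limma (lowest adjusted p 0.9181, for SEC61A1 at 0.44 log2, SE 0.21, with 1 gene at an unadjusted p under 0.05), and edgeR called 0. SEC63 was at 0.05 log2 (SE 0.19).

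Cell markers also differed in level between the ceftaroline groups, though none was called. The 6 detected fibroblast and smooth muscle markers summed to 7336 to 44522 normalised reads with ceftaroline (median 10173) and 28547 to 53812 with MSCs added (median 34120). All 6 had higher means with MSCs at an unadjusted p under 0.05 by limma (lowest adjusted p 0.1811, for PDGFRB). Of all 9924 genes, 1143 had such an unadjusted p in either direction. Among the other marker lists, 2 of 6 neutrophil, 1 of 5 endothelial and 1 of 7 B and plasma cell markers had it. The neutrophil sum was 54202 to 1677056 with ceftaroline (median 320799) and 17155 to 556175 with both (median 120882), and the type II sum 8731 to 117750 and 12507 to 157127 (medians 21283 and 54665). Each of these sums overlapped between the groups, and their part in the SEC62 difference was not tested.

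The ratio of SEC62 to SEC63 reads within a library needs no scaling between libraries. Its log2 was -1.18 ± 0.22 in healthy lung (SD, n = 7), -2.37 ± 0.26 with NaCl, -2.43 ± 0.26 with MSCs and -2.37 ± 0.31 with ceftaroline. With ceftaroline and MSCs together it was -1.20 ± 0.14, from -1.43 to -1.02 over the 7 libraries, which lies inside the healthy range of -1.50 to -0.92. The highest ceftaroline library was at -1.79, so the groups did not overlap. The lower mean of SEC63 in the combined treatment, 2054 ± 217 normalised reads against 2812 ± 559 in healthy lung, enters this ratio.

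Against SEC61A1 the picture differed. The log2 ratio was -2.01 ± 0.54 in healthy lung, -4.60 ± 0.32 with NaCl, -4.35 ± 0.48 with MSCs, -4.47 ± 0.37 with ceftaroline and -3.39 ± 0.45 with both (SD, n = 7 each). By its mean the combined treatment stood between the healthy lungs and the other pneumonia groups. SEC61A1 itself averaged 9429 ± 1702 normalised reads there, against 5033 ± 1034 in healthy lung and 10404 ± 1790 with ceftaroline alone. Against TRAM1 the means were -1.89, -3.67, -3.85, -3.94 and -2.73 in the same order.

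**Figure D4:**
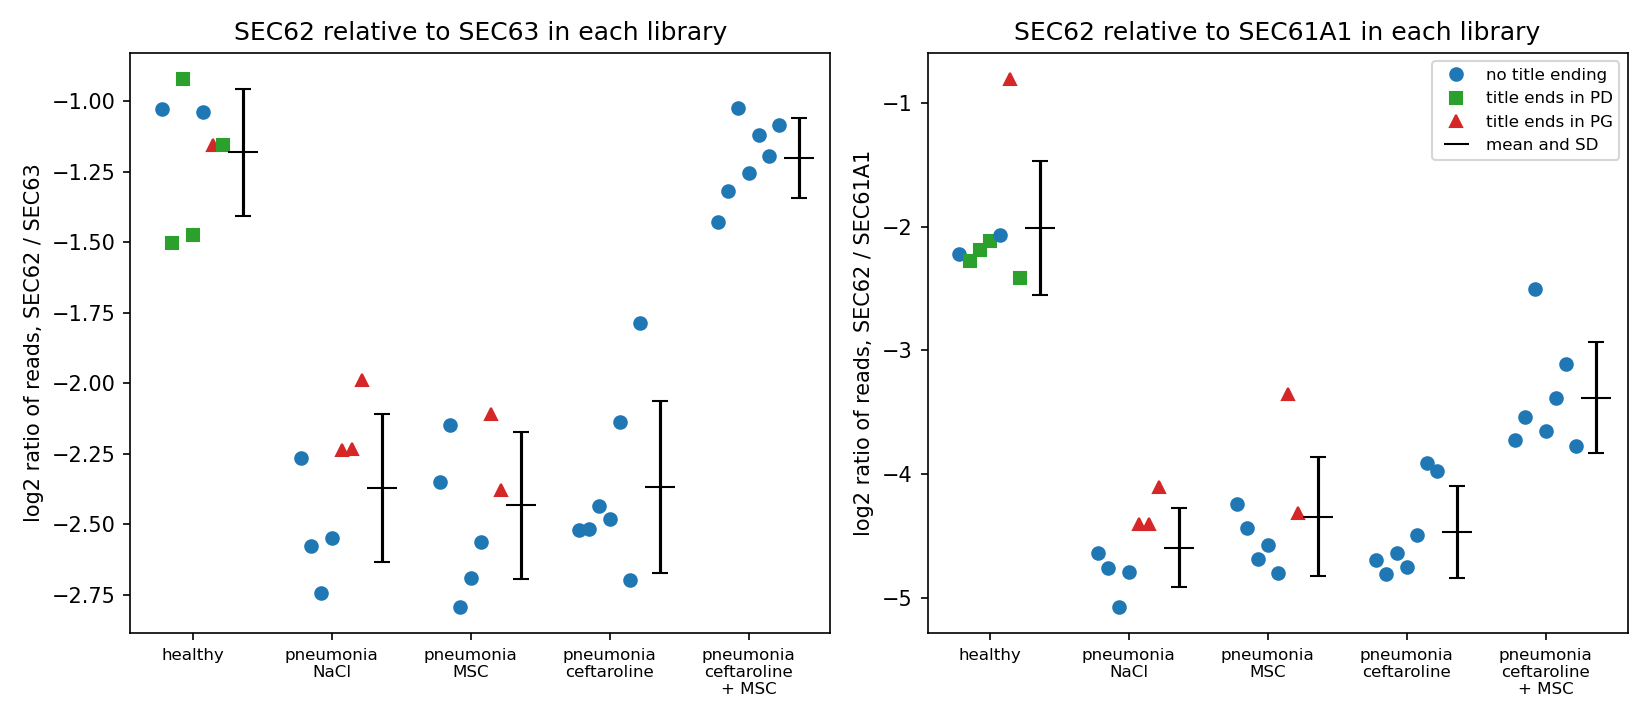
Log2 ratio of SEC62 to SEC63 reads (left y axis) and to SEC61A1 reads (right y axis) in each library by group (x axis), with mean and SD beside the points. Libraries given ceftaroline with MSCs share the healthy range for SEC63 (means -1.20 and -1.18) but lie lower than healthy for SEC61A1 (-3.39 and -2.01).

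Across the 35 libraries the genes most like SEC62, among 6638 named genes averaging 50 normalised reads or more, were MLLT6 (Spearman correlation 0.82), MTSS1L (0.81), TBKBP1 (0.81), CAVIN3 (0.80), TAF3 (0.80), HSPG2 (0.80), AHDC1 (0.80) and ADRB1 (0.79). HSPG2 encodes perlecan of basement membranes, CAVIN3 a coat protein of caveolae and ADRB1 a beta-adrenergic receptor. The most opposed were NRP2 (-0.82), IL13RA1 (-0.81), DMXL2 (-0.80) and SNRNP40 (-0.80). These libraries share groups and the change from healthy lung, and 43.6% of the genes had a correlation beyond 0.5 in either direction, so the values are a description.

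The group means of 3 of these genes, picked for their likeness, show what it covers. TBKBP1, an adaptor of the kinase TBK1, averaged 171 ± 19.1 normalised reads in healthy lung, 101 ± 27.7 with NaCl, 110 ± 57.1 with MSCs, 98.4 ± 29.0 with ceftaroline and 156 ± 30.8 with both. HSPG2 averaged 2516 ± 430, 990 ± 342, 1033 ± 492, 931 ± 387 and 1687 ± 509 (SD, n = 7 each). IL13RA1, a receptor chain for interleukin-13, ran opposite with 1750 ± 286, 4935 ± 1053, 5082 ± 1349, 5051 ± 1111 and 3501 ± 1238. In TBKBP1 and HSPG2 the healthy and combined treatment groups were highest as in SEC62, but the MSC group lay above NaCl and ceftaroline. Over the 28 pneumonia libraries 4 of the 8 most like genes stayed among the top 8, led by TBKBP1 (0.76). After the group means were subtracted, none of the 8 did, and RABEP1 (0.82), NPR3 (0.82) and MPP5 (0.82) led, so likeness between groups and within groups picked different genes.

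Of the pathway genes RETREG1 had the highest Spearman correlation with SEC62 over the 35 libraries (0.71, and 0.67 within groups), at rank 155 of the 6638 genes. The other ER-phagy genes ran from -0.26 (GABARAP) to 0.60 (GABARAPL1). Within groups these others ran from -0.60 (GABARAP) to 0.36 (CCPG1). SEC63 had 0.21, and 0.54 within groups. SEC61A1 had -0.48, and -0.01 within groups. Over the 25 libraries with no title ending, RETREG1 had 0.49, SEC63 -0.10 and SEC61A1 -0.31. The summed markers had 0.73 for alveolar type II, 0.68 for alveolar type I, 0.55 for fibroblasts and smooth muscle, 0.29 for endothelium, 0.02 for B and plasma cells, -0.59 for neutrophils and -0.78 for macrophages and monocytes.

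In the rabbit assembly mOryCun1.1 of RefSeq, used here only for gene order, SEC62 lies between GPR160, PHC3 and PRKCI, nearest first, and SAMD7, LRRIQ4 and LRRC34. None of the 4 neighbours with enough reads was called by limma in any comparison. Of all genes, limma called 60.6% for disease, 0% with MSC, 0% with ceftaroline and 0.0403% with MSC added to ceftaroline. A lack of calls in the treatment comparisons thus says little. With MSCs added to ceftaroline the neighbours stood at 0.16 (GPR160), 0.35 (PHC3), 0.07 (PRKCI) and 0.23 (LRRC34) log2, with limma adjusted p from 0.5455 to 0.8307. In the disease comparison GPR160 was at -0.92 log2 (limma adjusted p 0.05566) and LRRC34 at -0.81 (0.07446), while PHC3 was at -0.21 and PRKCI at -0.07. SAMD7 and LRRIQ4 were too low to test.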

How the data were processed

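Libraries were stranded mRNA libraries read as single 75 bp reads on a NextSeq 500, trimmed with Cutadapt 1.15 with reads over 10 bp kept, per the labels' protocols. TopHat2 2.1.1, featureCounts 1.5.2 and DESeq2 1.24.0 are named in the submitters' processing notes. The genome build is not given in the sources used here. Each of the 4 deposited tables holds, per the file headers, a normalised signal per gene and library (gene counts divided by a size factor, scaled within that table), and the authors' log2 fold change with its standard error, a Wald statistic (score), p-value and adjusted p-value. Every deposited signal was a whole multiple of its library's step (100.0% within a relative tolerance of 1e-06), which gave back whole reads. In 2 columns, healthy replicate 6 and, in the ceftaroline table, ceftaroline replicate 1, the step was close to 1 (1.001744 and 0.999053), and 100.0% of nonzero values were whole at that step against 0.097% and 0.217% at a step of 1. The 14 libraries found in several tables had the same reads in each, and no pair in a group was alike within counting noise (lowest chi-square per degree of freedom 39.4).

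Tests used limma 3.58.1 in R 4.3.3, two-sided with an intensity trend, on log2(deposited value + 1), so folds of low genes are understated, within each table of 14 libraries. Genes with values under 10 in more than 7 libraries were left out, and p-values were Benjamini-Hochberg adjusted over all genes tested and called under 0.05. The difference between the MSC effects used recovered reads of the 28 pneumonia libraries on common size factors, which were medians of ratios over 9765 genes. Alternatives were edgeR 4.0.16 (quasi-likelihood) and DESeq2 1.42.0 on recovered reads, other pseudocounts (0.5 and 10), no filter, title endings left out or as a covariate, the title number as a block, each library left out, and, added after the data were seen, reads per library total. The ending covariate pooled PD and PG, so in the disease comparison it does not adjust for PG alone. Tests were checked on simulated data. SEC62, the gene lists and the rules were chosen with earlier results of these data known. Named genes were SEC62, detected genes of the channel, BiP, TRAM and TRAP, and ER-phagy lists, up to 3 genes of lowest p in each other list and comparison (SRP14 and STT3B were added to name the members of a count), the 8 genes most like and the 4 most opposed to SEC62, and the 3 nearest genes on each side. Of 96 listed genes 68 were in the tables, 15 of them listed at 0 in all libraries. The groups are separate rabbits per the series' design text. Intervals cover the spread between animals, and counting error where stated.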

Additional observations from a re-analysis of the deposited data

Results flagged for a closer look

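In 60 groups of 7 libraries (SEC62 and 11 genes of the channel and its partners, in 5 groups each), a library stood far from the rest in 2. Chance gives this in about 1 in 20 groups, so 2 of 60 is no excess. SEC62 in healthy replicate 6 was 1697 normalised reads with the next healthy library at 1209, a gap of 0.716 of the group's range. This is the healthy library whose title ends in PG. SEC61A2 in MSC replicate 7, which also carries that ending, was 86.5 normalised reads with the next at 60.5, a gap of 0.694 of the range.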

How the results depend on the processing

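The SEC62 difference moved by more than the spread between libraries under 1 setting, reads per library total in the disease comparison (-1.53). Leaving out each library gave -1.17 to -0.99 for disease, -0.41 to -0.22 for MSC, -0.33 to -0.18 for ceftaroline and 0.88 to 0.97 for MSC with ceftaroline. In the ceftaroline comparison it was 0.01 both without the libraries with a title ending and with the ending as a covariate. In the disease comparison it was -1.30 and -0.95 in these 2 settings. The listed genes called numbered 33 to 37 for disease and 0 in the other comparisons when single libraries were left out; DESeq2 called 3 with MSC and 3 with ceftaroline, and reads per library total 1 with MSC. Genes called over the whole table moved more: for disease 3764 without title endings (5378 to 5748 leaving out single libraries); for MSC 1 with no filter, 335 with DESeq2, 7 without title endings and 294 with reads per library total (0 to 3 leaving out single libraries, 3 without NaCl replicate 1, 1 without MSC replicate 7); for ceftaroline 519 with DESeq2 and 2 with the ending as a covariate (0 to 189, 189 without NaCl replicate 1, 1 without NaCl replicate 3). For MSC with ceftaroline the count was 8 with a pseudocount of 10, 11 with edgeR, 99 with DESeq2, 23 with reads per library total and 2 to 14 leaving out single libraries, 14 without replicate 7 of the combined treatment and 2 without replicates 2, 3, 5 or 7 of ceftaroline or 2, 4, 5 or 6 of the combined treatment. The cause was not tested. With the title number as a replicate block in that comparison, 0 genes and 0 listed genes were called and SEC62 was 0.93. The numbers are only shared labels: correlations of same-numbered deviations ran from -0.385 to 0.484 over 7 pairs, and 0 libraries correlated best with their own number. Of the 8 genes most like SEC62, 2 stayed among the top 8 by Pearson correlation and 4 without the healthy libraries. Fits without title endings were not made for MSC with ceftaroline, which has none. Depth limits genes under 10 normalised reads, not SEC62.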
